A study of Mus musculus with 7 samples.

Results

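The genes described here are the Wnt ligands, their receptors, their secreted inhibitors and the proteins that carry the signal to the nucleus, measured in sorted mouse pancreatic alpha cells with and without a deletable Nkx2-2 gene. They were chosen by name alone: a row of the count table was a member when its symbol was Wnt, Fzd, Sfrp or Dkk followed by a number, or was one of 14 named pathway genes. The rule found 51 genes among 55536. Alpha cells are the islet cells that secrete glucagon, and NKX2-2 is a homeodomain transcription factor of islet endocrine cells.

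The table holds 4 control and 3 KO libraries, made from RNA of tdTomato-positive cells purified from pancreatic islets of C57B1/6J mice. Controls had the genotype Nkx2.2+/+;Gcg-iCre;Rosa26:tdTomato and KO libraries Nkx2.2fl/fl;Gcg-iCre;Rosa26:tdTomato, so both groups carried the Cre recombinase driven by the glucagon gene and the red reporter that it switches on. A deletion made this way reaches only cells that have expressed that Cre, and a cell sorted as red keeps the reporter whatever hormone it makes later. Age, sex and the number of mice behind each library are not given in the sources used here, so the p-values measure the spread between these libraries, which may be partly technical. One KO column carries a number that matches no KO sample title, and it is called the unnumbered KO library. Totals ran from 45483504 to 72456557 counts, control 4 being the deepest and the library farthest from the others. Nkx2-2 itself stood in KO at 73.2% of the control level (DESeq2 log2 fold change -0.45, adjusted p 0.0244, edgeR adjusted p 0.152), and the counts cover the whole gene, including any part outside the deleted stretch. Of 8 alpha cell markers, none was at 0 in all libraries and 6 were lower in KO, with summed levels of 6417122 to 8411910 normalized counts in control and 2925132 to 4240504 in KO.

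Wnt proteins are secreted lipid-modified signals that bind frizzled receptors together with the co-receptors LRP5 and LRP6. In the canonical branch this stops a destruction complex of AXIN, APC and kinases from marking beta-catenin for breakdown, and beta-catenin then activates genes with TCF/LEF proteins. SFRP and DKK proteins block the signal outside the cell, RNF43 and ZNRF3 remove frizzled receptors from the surface, and R-spondins acting through LGR receptors hold those ligases back. Other branches of the pathway act on cell polarity and calcium without beta-catenin. In the pancreas Wnt signals are known for roles in organ growth, and TCF7L2 is the product of a gene linked to type 2 diabetes.

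DNA before the start sites of Wnt4, Sfrp5 and Axin2 is shown because these 3 members had the lower levels in KO that the results below turn on. Each stretch lies before the start site in RefSeq (build GRCm38.p6), is written 5′ to 3′ on the gene's own strand, and is limited to bases that no GENCODE exon covers. Capitals mark matches on either strand to 4 short motifs: CTTTGA (TCF/LEF), TNAAGTG (NKX2-2), GGGNGTGG (KLF4, which the series title names beside NKX2-2) and the GC box GGGCGG. Matches may overlap each other.
Wnt4, chr4:137277385-137277488, plus strand: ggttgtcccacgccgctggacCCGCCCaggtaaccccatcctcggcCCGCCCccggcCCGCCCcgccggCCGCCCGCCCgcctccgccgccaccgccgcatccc
Sfrp5, chr19:42202253-42202502, minus strand: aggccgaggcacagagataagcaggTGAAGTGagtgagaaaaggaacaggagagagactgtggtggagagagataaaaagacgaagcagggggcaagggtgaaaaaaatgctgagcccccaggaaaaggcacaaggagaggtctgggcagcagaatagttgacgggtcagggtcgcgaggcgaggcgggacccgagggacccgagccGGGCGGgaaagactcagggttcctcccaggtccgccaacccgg
Axin2, chr11:108920099-108920348, plus strand: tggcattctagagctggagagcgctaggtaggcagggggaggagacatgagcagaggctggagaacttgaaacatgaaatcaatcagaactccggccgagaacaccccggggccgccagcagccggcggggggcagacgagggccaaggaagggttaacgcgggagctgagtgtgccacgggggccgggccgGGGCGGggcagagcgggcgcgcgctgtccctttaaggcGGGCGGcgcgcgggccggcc
The Wnt4 stretch is 104 bases long with 83.7% G and C, and it held 5 GC boxes and none of the other 3 motifs. The Sfrp5 stretch held 1 NKX2-2 core and 1 GC box, and the Axin2 stretch held 2 GC boxes. None of the 3 held the TCF/LEF core. Fzd1, also below control in every KO library, is not shown, and the 250 bases before its start site held 1 TCF/LEF core. Over windows of 250 bases before 32851 RefSeq start sites, the median G and C content was 52.4%. The TCF/LEF core stood in 13.8% of those windows, the NKX2-2 core in 10.1%, the KLF4 core in 15.9% and the GC box in 32.7%. In 43 such windows of 33 members the shares were 11.6%, 6.98%, 20.9% and 69.8%. A match is a string of letters and not a binding site, and no binding was measured here. The promoter table holds no entry for Lrp5 and Lrp6.

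Of the 51 members, 47 had at least 1 count in some library and 29 had counts in all 7. Wnt2, Wnt8a, Dkk1 and Dkk4 were at 0 in every library, where a floor of 3 counts allows a level of up to 0.0414 CPM in the deepest and 0.066 CPM in the shallowest library, for counting error only. DESeq2 gave an adjusted p for 31 members. It set aside 15 as too low and Wnt2b as a count outlier. An adjusted p under 0.05 was found for 3 members. Rnf43 was higher, and Wnt4 and Sfrp5 were lower. This is 9.68% of the members tested, beside 3.9% of all 19719 genes (1.96% higher and 1.94% lower). With edgeR's quasi-likelihood test Wnt4 alone was called among 30 members tested, beside 1.05% of all genes. KO and control libraries did not overlap in 7 of the 31 members (22.6%), 3 above and 4 below control, against 11.4% of all genes. The median log2 fold change was 0.07 over these 31 members and 0.01 over all genes. The members with an adjusted p are those that passed a filter on low counts, so these shares describe them and no more.

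**Figure D1:**
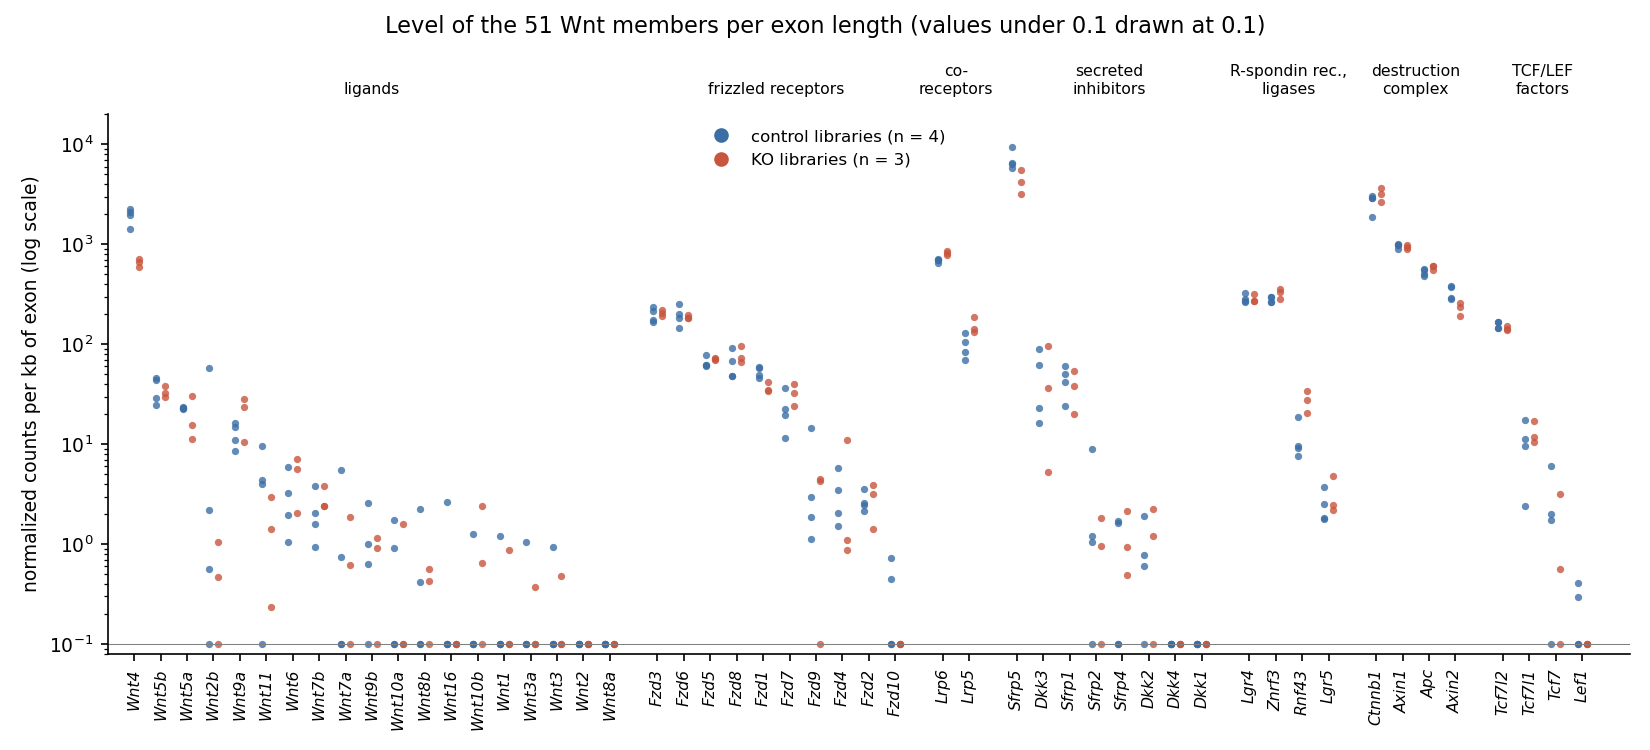
Normalized counts per kb of exon (log scale) for all 51 members by role, with 1 point per library and values under 0.1 drawn at 0.1. Wnt4 leads the ligands, Sfrp5 the inhibitors, Lrp6 the co-receptors and Tcf7l2 the TCF/LEF factors, each with all libraries above those of the next gene.

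Among the 19 ligands, Wnt4 was by far the most abundant per length in control alpha cells, and it was the only ligand called, with a lower level in KO. WNT4 is a secreted Wnt that can signal with or without beta-catenin. Its gene (ENSMUSG00000036856) lies on chr4:137277489-137299726 in mm10. Control libraries 1 to 4 held 9347, 8163, 8759 and 5945 normalized counts, and KO 1, KO 2 and the unnumbered KO library held 2982, 2476 and 2760. All 3 KO libraries were below the lowest control library, which was control 4. The mean fell from 8054 ± 1487 (SD, n = 4) to 2739 ± 254 (SD, n = 3), or 34% of control. The log2 fold change was -1.56 (SE 0.16, DESeq2 adjusted p 1.1e-18, edgeR adjusted p 0.00725). With each library left out in turn it lay between -1.68 and -1.48, and it was called in all 7 of these DESeq2 fits. In bulk RNA, fewer cells with the transcript and less of it per cell cannot be told apart. The alpha cell markers fell beside it, with libraries that likewise did not overlap, and the gamma cell markers Ppy and Pyy rose, with sums of 308242 to 579053 normalized counts in control and 888245 to 1135028 in KO. The part of either in the Wnt4 result was not tested.

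Per kb of exon, Wnt4 stood at 1920 ± 354 (SD, n = 4) normalized counts in control and 653 ± 60.6 (SD, n = 3) in KO. The next ligand, Wnt5b, stood at 35.9 ± 10.7 (SD, n = 4) per kb in control and 33.5 ± 4.23 (SD, n = 3) in KO, so Wnt4 kept first place in both groups. The summed level of all 19 ligands per kb was 2023 ± 323 (SD, n = 4) in control and 740 ± 39.6 (SD, n = 3) in KO. Without Wnt4 the other 18 ligands summed to 102 ± 31.9 in control and 87.3 ± 23.3 in KO, and these libraries overlapped. Wnt4 made up 97%, 94.9%, 95.8% and 90.7% of the summed ligand level in control libraries 1 to 4, and 90.8%, 83.8% and 89.6% in KO. Control 4 and KO 1 were at almost the same share, so the groups overlapped in share although they did not in level. The control 4 sum holds a single distant value of Wnt2b, 58.5 per kb against 0 to 2.18 in the other controls. That value lowers the share of Wnt4 in control 4, and the share without Wnt2b was not computed.

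Wnt5a and Wnt5b were low and gave no call. Wnt5a had 184, 178, 178 and 179 normalized counts in control, and 123, 238 and 87.4 in KO. Its control libraries agreed closely while the KO libraries lay on both sides of them (log2 fold change -0.27, SE 0.36, adjusted p 0.983). Wnt5b (-0.10, adjusted p 1) and Wnt9a (0.72, adjusted p 0.772) overlapped between groups as well. Wnt11, Wnt6 and Wnt7b had means under 20 normalized counts in both groups and adjusted p-values from 0.874 to 1. Apart from Wnt2b, the other 9 ligands with any count stayed under 20 normalized counts in every library, and DESeq2 gave them no adjusted p.

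Of the 10 frizzled receptors, which bind Wnt proteins at the cell surface, 9 were tested and none was called. Per kb of exon Fzd3 (198 ± 32.2, SD, n = 4) and Fzd6 (196 ± 46.2, SD, n = 4) led in control and did not differ beyond their spread. Fzd5 (65.6 ± 8.86) and Fzd8 (64.1 ± 20.6) came next, also within their spread. These 4 receptors made up 85.8% of the summed frizzled level in control and 87.4% in KO. Fzd3 had 3005, 2740, 2222 and 2148 normalized counts in control and 2809, 2649 and 2476 in KO, with every KO library inside the control range (log2 fold change 0.06, adjusted p 1). Opposite-strand exons of Gm38058 cover 17.8% of the exon length of Fzd5. Fzd10 had at most 2 counts in any library.

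Fzd1 was the one frizzled gene whose groups did not overlap. Its gene (ENSMUSG00000044674) lies on chr5:4753839-4758035. It had 193, 245, 246 and 208 normalized counts in control and 174, 143 and 145 in KO. The KO mean was 69% of control (log2 fold change -0.53, SE 0.24). Neither DESeq2 (adjusted p 0.289) nor edgeR (0.434) called it. In none of the 20 other fits did it pass.

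Both co-receptors were above control in all 3 KO libraries without passing the threshold. LRP5 and LRP6 are single-pass proteins that join frizzled to form the canonical receptor. Lrp6 (ENSMUSG00000030201, chr6:134446476-134566965) had 9698, 9478, 8983 and 9511 normalized counts in control and 11074, 11708 and 10692 in KO. The controls were tight and the difference was small (log2 fold change 0.24, SE 0.08, adjusted p 0.0741, edgeR 0.296). Lrp5 (ENSMUSG00000024913, chr19:3584828-3686564) had 1036, 1274, 811 and 680 in control and 1816, 1387 and 1305 in KO. Its difference was larger and its libraries more spread (log2 fold change 0.66, SE 0.23, adjusted p 0.0775, edgeR 0.264). Of the 7 DESeq2 fits that left out 1 library, only the one without control 2 called Lrp5 (adjusted p 0.00411). Without KO 1 its adjusted p was 0.609. None of those 7 fits called Lrp6 (adjusted p 0.112 to 0.431). Lrp6 passed with TMM-based size factors (adjusted p 0.0409), after a filter of 10 counts in at least 3 libraries (0.0387) and on halved counts (0.0435). With library totals in place of size factors both genes passed, at an adjusted p of 0.0128, and that scaling shifted the median log2 fold change of all genes from 0.01 to 0.11. Per kb, Lrp6 stood 7.46 ± 1.98 (SD, n = 4) times above Lrp5 in control and 5.4 ± 0.916 (SD, n = 3) times above it in KO, with overlapping libraries.

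**Figure D2:**
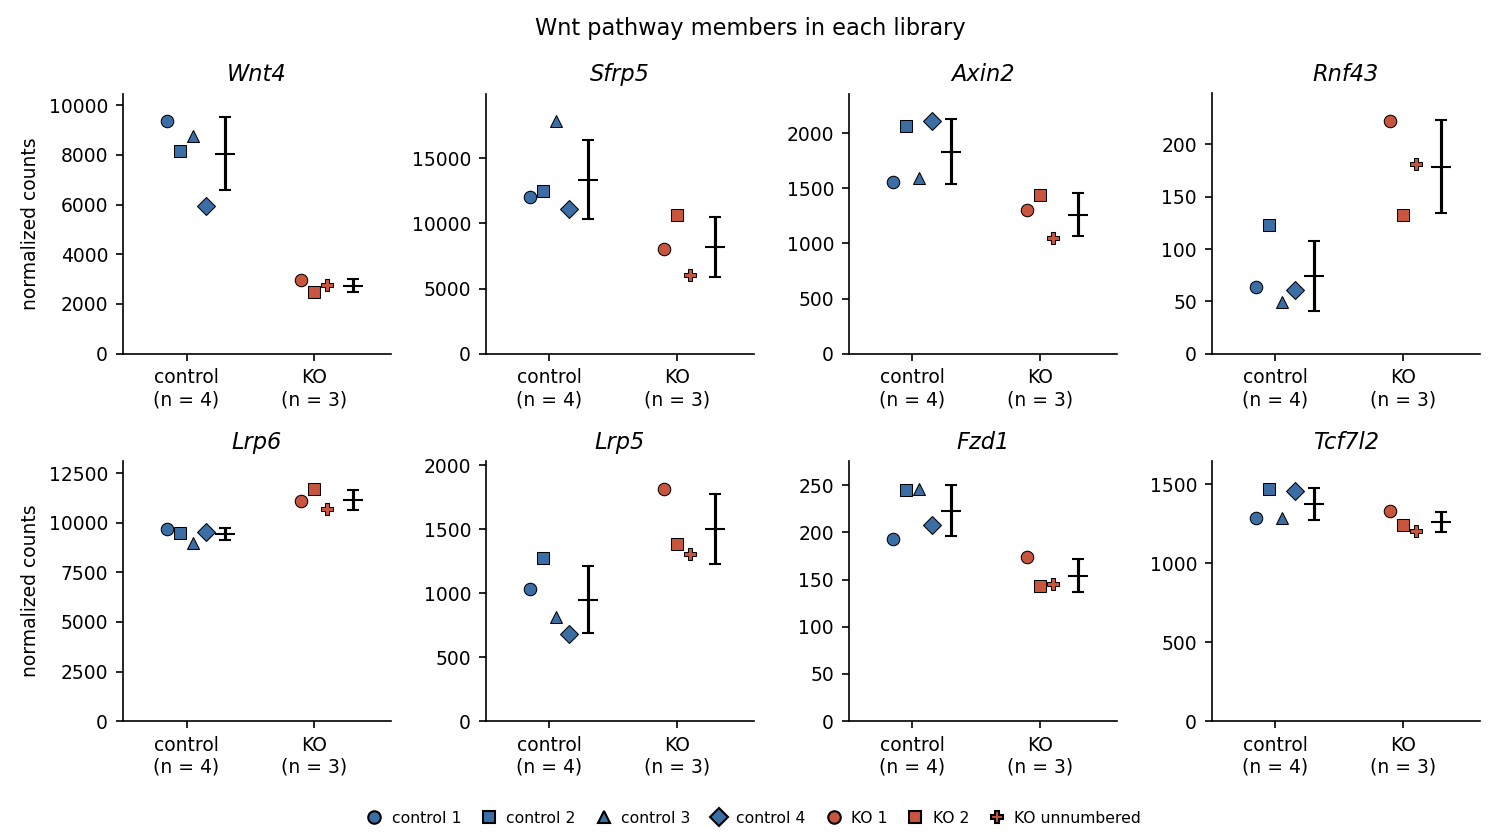
Normalized counts of 8 members in each library (linear axes from 0), with the mean and SD of each group beside the points. The 3 KO libraries lie below every control library for Wnt4, Sfrp5, Axin2 and Fzd1, above every one for Rnf43, Lrp6 and Lrp5, and within or below the control range for Tcf7l2.

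Sfrp5 was the most abundant member per length, and it fell in KO by the DESeq2 test. SFRP5 is a secreted protein with a frizzled-like domain that binds Wnt proteins outside the cell. Its gene (ENSMUSG00000018822) lies on chr19:42197971-42202252. Control libraries held 11991, 12493, 17833 and 11120 normalized counts, and KO libraries 8044, 10611 and 6019. The highest KO library, KO 2, was just under the lowest control library, control 4. The KO mean was 61.6% of control (log2 fold change -0.70, SE 0.21, DESeq2 adjusted p 0.0236), and edgeR did not call it (adjusted p 0.226). Leaving out each library in turn kept the call in 4 of 7 fits. It was lost when control 3 (adjusted p 0.152), KO 1 (0.164) or the unnumbered KO library (0.134) was left out, and without control 4 the adjusted p was 0.00129.

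Per kb, Sfrp5 stood at 7031 ± 1598 (SD, n = 4) in control and 4329 ± 1211 (SD, n = 3) in KO. It made up 98.7% of the summed level of the 8 secreted inhibitors in control and 98.1% in KO. The ratio of Wnt4 to Sfrp5 per kb was 0.353, 0.296, 0.223 and 0.242 in control and 0.168, 0.106 and 0.208 in KO, so the ligand was lower relative to the inhibitor in every KO library than in any control library. Dkk3 had 77.1, 208, 301 and 54.9 normalized counts in control and 17.6, 322 and 121 in KO, varying more between libraries than between groups (adjusted p 1). Sfrp1, another frizzled-related inhibitor, also overlapped (log2 fold change -0.24, adjusted p 0.996). Sfrp2, Sfrp4 and Dkk2 received no adjusted p.

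Rnf43 was the only member that rose past the DESeq2 threshold. RNF43 is a membrane ubiquitin ligase that takes frizzled receptors off the cell surface and is itself a known Wnt target. Its gene (ENSMUSG00000034177) lies on chr11:87662722-87735539. It had 63.5, 123, 49.7 and 60.7 normalized counts in control and 222, 133 and 181 in KO. Control 2 and KO 2 were close to each other, and the other libraries were well apart. The log2 fold change was 1.27 (SE 0.40, adjusted p 0.044), or 2.41-fold, and edgeR gave an adjusted p of 0.212. When 1 library at a time was left out the call held in 2 of 7 fits, those lacking control 2 (adjusted p 0.00135) and control 4 (0.0447), and the adjusted p was as high as 0.465 when KO 1 was missing. Among 6 duct cell markers Spp1 was higher in KO (adjusted p 0.0275). Sox9 had 250, 586, 94.1 and 139 normalized counts in control and 862, 1039 and 682 in KO, a KO mean of 322% of control (DESeq2 adjusted p 0.186). Cftr had 13.6, 37.7, 2.61 and 18.8 in control and 60.6, 72.3 and 61.5 in KO, or 356% of control (adjusted p 0.182). For Spp1, Sox9 and Cftr all KO libraries were above all control libraries, as for Rnf43, while Krt7, Krt19 and Muc1 overlapped between groups. Control 2 was the highest control for Sox9, Cftr and Rnf43, and control 4 for Spp1. The pattern was not particular to duct markers. The beta, delta and gamma cell markers Iapp, Slc2a2, Rbp4, Ppy and Pyy also had all KO libraries above all controls, with control 2 the highest control. Most beta and delta cell markers overlapped between groups. These were Ins1, Ins2, Mafa, Nkx6-1, Pdx1 and Ucn3 for beta cells, and Sst, Hhex and Ghsr for delta cells. The summed level of the 6 duct cell markers, most of it Krt7, was 8512 to 12499 in control and 12050 to 12617 in KO, with overlap. The part of duct cell RNA, or of RNA from beta, delta or gamma cells, in the Rnf43 result was not tested.

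The related ligase Znrf3 was far more abundant. It stood at 281 ± 20.1 (SD, n = 4) normalized counts per kb in control, against 11.3 ± 5.02 (SD, n = 4) for Rnf43. The ratio of Znrf3 to Rnf43 per kb was 28 ± 9.5 (SD, n = 4) in control and 12.6 ± 4.37 (SD, n = 3) in KO, with overlapping libraries. Znrf3 itself was not called (log2 fold change 0.21, adjusted p 0.629). Lgr4, a receptor for R-spondins, stood at 286 ± 27.7 (SD, n = 4) per kb in control, level with Znrf3 within their spread. It had 1543, 1914, 1603 and 1661 normalized counts in control and 1576, 1864 and 1605 in KO. These were nearly the same range in both groups (log2 fold change 0.00, SE 0.13, adjusted p 1). Lgr5, its relative known as a stem cell marker, stayed under 50 normalized counts in every library.

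Axin2, a scaffold of the destruction complex and a widely used readout of canonical Wnt signalling, just missed the threshold. Its gene (ENSMUSG00000000142) lies on chr11:108920349-108950783. It had 1560, 2063, 1598 and 2108 normalized counts in control and 1304, 1438 and 1046 in KO. All KO libraries were below all control libraries, and the KO mean was 68.9% of control (log2 fold change -0.54, SE 0.17). The adjusted p was 0.0501 in DESeq2 and 0.19 in edgeR. In 7 of 20 alternative fits DESeq2 called it, including 3 that retuned the low-count filter or dropped genes of 0 counts (adjusted p 0.0451 to 0.0465). In the other 13 it was not called, among them the DESeq2 fit without that low-count filter (adjusted p 0.0862). Without control 4 the adjusted p was 0.083. Exons of the opposite-strand gene Gm11670 cover 3.8% of its exon length, and the strand setting of the counting is not given in the sources used here.

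The other parts of the destruction complex were not called. Axin1, a scaffold with the same role, had 3823, 3762, 3738 and 3443 normalized counts in control and 3554, 3724 and 3452 in KO, with overlap (log2 fold change -0.05, SE 0.09, adjusted p 1). The ratio of Axin1 to Axin2 per kb was 2.97 ± 0.569 (SD, n = 4) in control and 4.13 ± 0.542 (SD, n = 3) in KO, and each of the 3 KO libraries was above each control library. Apc overlapped as well (0.16, adjusted p 0.611). Ctnnb1, which encodes beta-catenin and led this role per kb, had 15053, 15931, 15115 and 9686 in control and 16590, 18840 and 13865 in KO (0.24, SE 0.18, adjusted p 0.806). Control 4 was far below the other controls, and without it the log2 fold change was 0.10. Opposite-strand exons cover 14.6% of the exon length of Ctnnb1, so its counts may hold reads of Ulk4 or 4930593C16Rik.

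Tcf7l2, the main TCF/LEF factor of these cells, did not pass. Its gene (ENSMUSG00000024985) lies on chr19:55741820-55933654. It had 1289, 1471, 1286 and 1456 normalized counts in control and 1334, 1242 and 1207 in KO. KO 1 lay inside the control range and the other two just under it (log2 fold change -0.13, SE 0.12, DESeq2 adjusted p 0.921, edgeR 0.811). With each library left out the log2 fold change stayed between -0.17 and -0.09. Tcf7l2 made up 92.5% of the summed TCF/LEF level per kb in control and 91% in KO. Tcf7l1, often a repressor, stood at 39.9 ± 24.3 (SD, n = 4) normalized counts in control and 51.2 ± 13.4 (SD, n = 3) in KO (log2 fold change 0.37, DESeq2 adjusted p 0.998), and Tcf7 and Lef1, best known from lymphocytes, received no adjusted p.

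**Figure D3:**
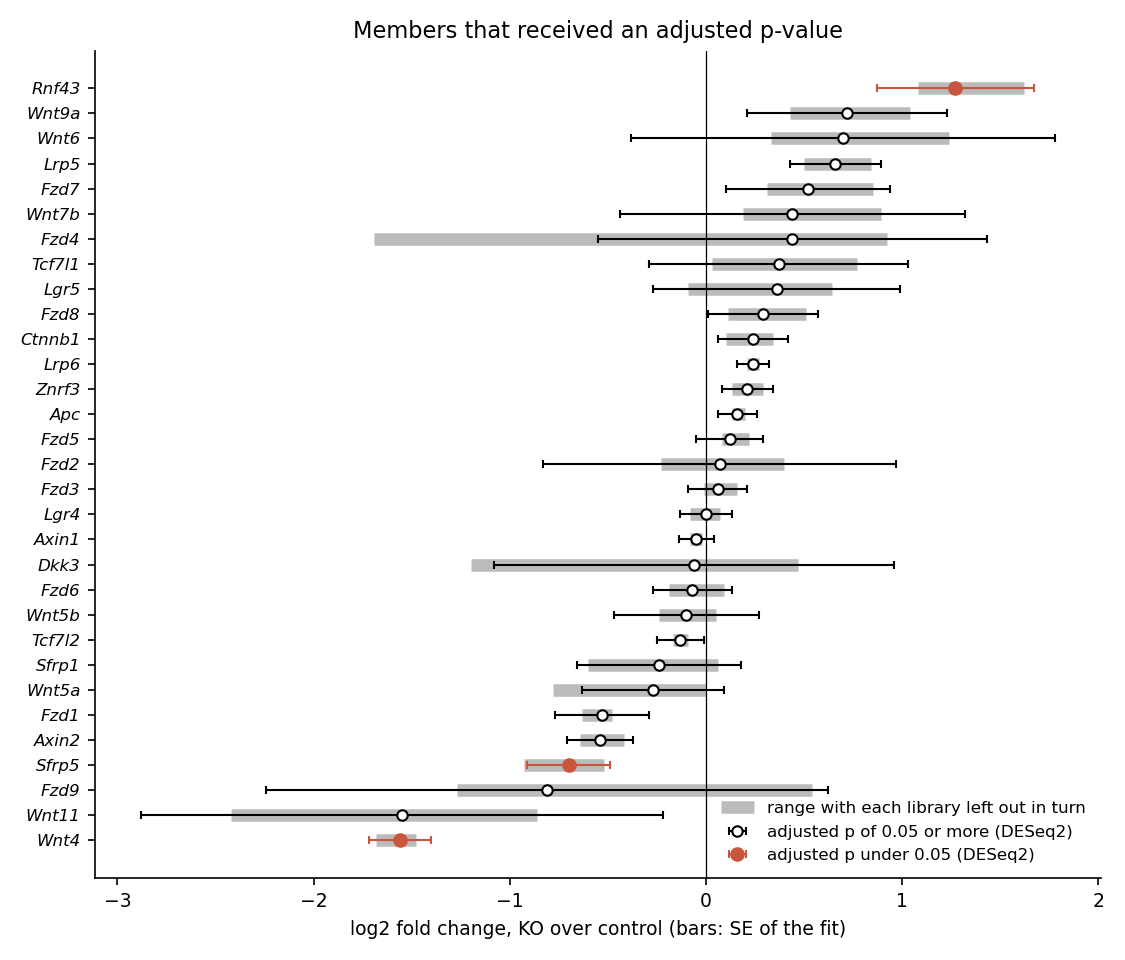
DESeq2 log2 fold change (KO over control) of the 31 members with an adjusted p, with SE as thin bars and the range over the 7 fits that left out 1 library as grey bands. Wnt4 at -1.56, Sfrp5 at -0.70 and Rnf43 at 1.27 are filled as called, and the wide bars of Wnt11, Fzd9 and Fzd4 belong to genes of low counts.

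**Figure D4:**
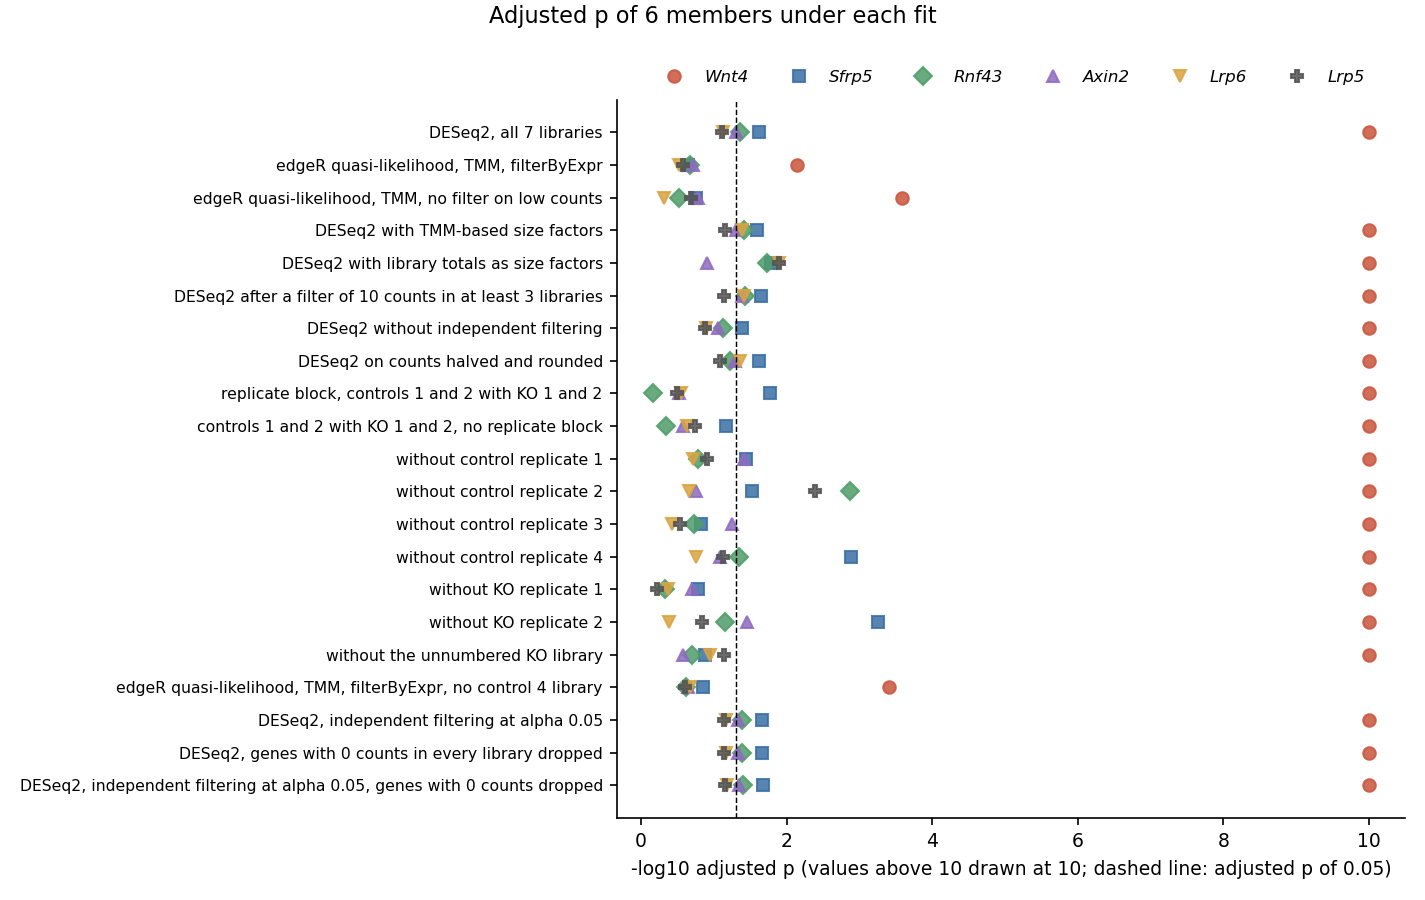
Adjusted p on a -log10 axis for 6 members under the reported fit and 20 other fits, with values above 10 drawn at 10 and the threshold of 0.05 dashed. Wnt4 lies past the threshold under every fit shown, while Sfrp5, Rnf43, Axin2, Lrp6 and Lrp5 lie on both sides of it.

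Beyond the members, 6 lists of other Wnt pathway genes held 85 genes, all with counts, and 76 received an adjusted p. Of these, 7 were called (9.21%), 6 higher and 1 lower, beside 3.9% of all genes. Their median log2 fold change was -0.03. No gene was called among 12 tested secretion factors and extracellular modulators, such as Porcn and Wls, which make and export Wnt proteins, or among the 4 other Wnt receptors Ror1, Ror2, Ryk and Ptk7. In the signal transduction list 1 of 18 was called, among nuclear cofactors of beta-catenin 1 of 14, in the polarity and calcium branch 1 of 18, and among targets and feedback genes 4 of 10. The lists were chosen with earlier results of these data known, so these shares describe the listed genes with an adjusted p and no more.

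Celsr1, an atypical cadherin of the planar cell polarity branch, was the only one of the 7 that edgeR also called. It had 418, 363, 411 and 320 normalized counts in control and 715, 660 and 683 in KO, with tight groups far apart (log2 fold change 0.86, SE 0.17, DESeq2 adjusted p 3.48e-05, edgeR 0.0344). Frat1, which binds the kinase GSK3 and favours the signal, had 152, 276, 157 and 224 in control and 471, 639 and 383 in KO (1.30, SE 0.29, adjusted p 0.000594, edgeR 0.0684). Both kept their call whichever of the 7 libraries was left out. Pygo1, a cofactor that links beta-catenin to chromatin, had 387, 533, 404 and 241 in control and 685, 903 and 653 in KO (0.94, SE 0.27, adjusted p 0.0167, edgeR 0.148). Its groups did not overlap, and it kept its call in 3 of those 7 cases.

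The targets and feedback genes did not move as one. Myc, Cd44 and Zcchc12 rose, and Apcdd1 fell. Myc, a growth regulator with many inputs besides Wnt, had 522, 692, 374 and 319 normalized counts in control and 908, 966 and 768 in KO (log2 fold change 0.89, adjusted p 0.0258, edgeR 0.182, called in 3 of 7 leave-one-out fits). Cd44, a cell surface receptor for hyaluronan, had 1196, 1076, 709 and 586 in control and 2016, 1411 and 1507 in KO (0.88, adjusted p 0.017, edgeR 0.183, called in 5 of 7). Zcchc12 had 281, 505, 370 and 368 in control and 806, 745 and 642 in KO (0.94, adjusted p 0.00156, edgeR 0.0713, called in 6 of 7). Apcdd1, a membrane inhibitor of Wnt signalling, had 302, 212, 507 and 377 in control and 131, 138 and 45.9 in KO. No KO library reached the lowest control, and the KO mean was 30.1% of control (-1.74, SE 0.42, adjusted p 0.00167, edgeR 0.128, called in 7 of 7). With controls 1 and 2 against KO 1 and 2 alone its log2 fold change was -0.93 (adjusted p 0.147). The feedback gene Axin2 stood on the lower side with Apcdd1, and the feedback gene Rnf43 on the higher side with Myc.

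**Figure D5:**
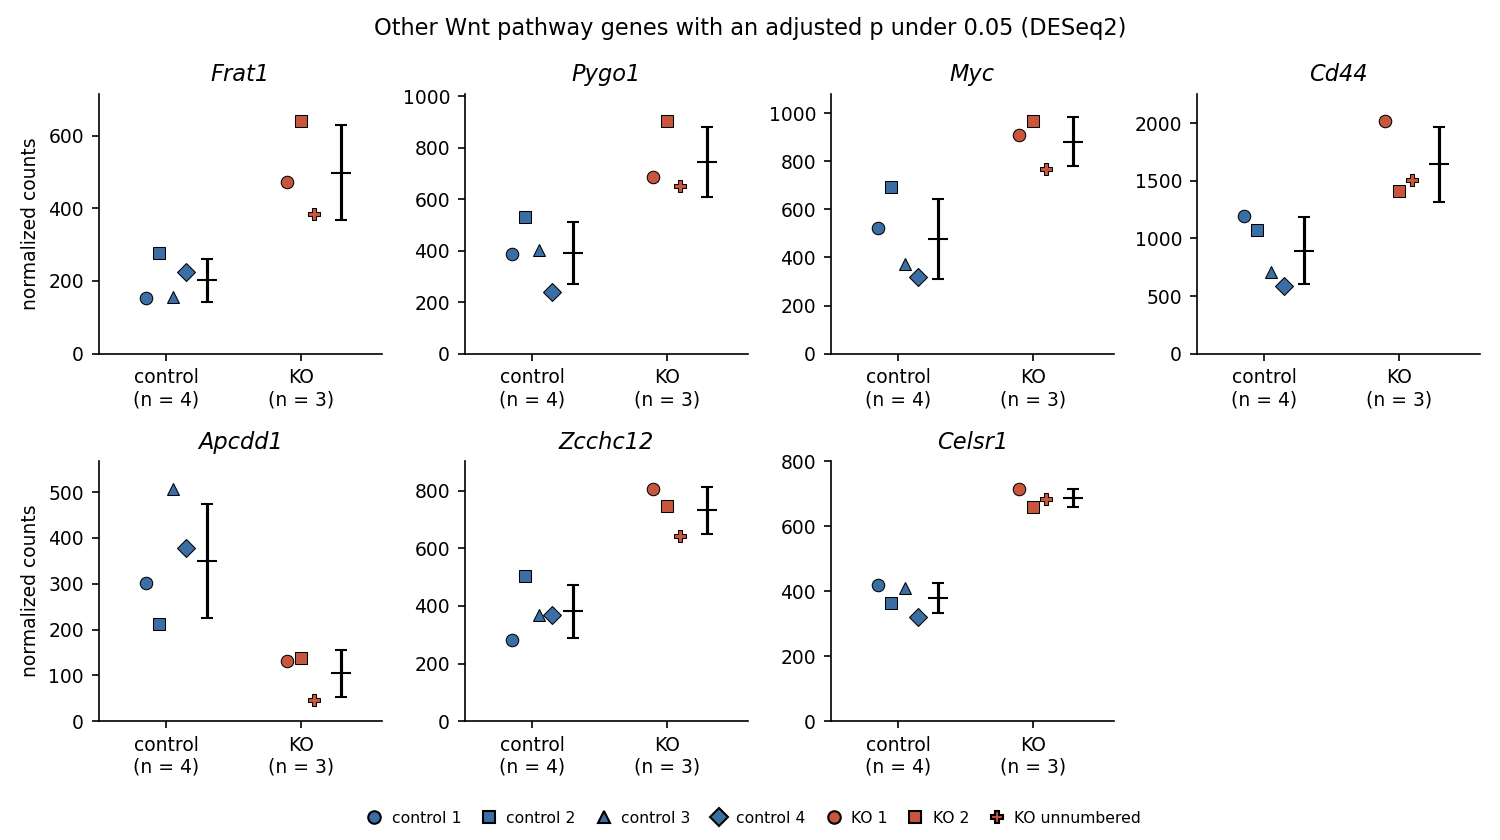
Normalized counts in each library (linear axes from 0) of the 7 listed pathway genes with an adjusted p under 0.05 in DESeq2, with mean and SD. In every panel the 3 KO libraries lie on one side of the 4 control libraries, below for Apcdd1 and above for the other 6.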

How the data were processed

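Gene counts of 4 control and 3 KO libraries were taken as the authors deposited them, in 1 table with a count column per library. Per the submitters' processing notes, FastQC, STAR, featureCounts and DESeq2 were used with genome build mm10. Versions and strand settings are not given in the sources used here. Per the labels' protocols, RNA of sorted cells went through a stranded, ribosome-depleted, low-input kit, although the molecule is labelled as polyA RNA. In each library 84.4% to 88.9% of the counts between 1 and 10 were even numbers, so halved counts were tried as an alternative.

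The table was fitted whole in R 4.3.3 by DESeq2 1.42.0 (its Wald test with its own median-ratio size factors, defaults for the count outlier and low-count filters, no covariate, Benjamini-Hochberg over all genes, threshold 0.05, two-sided), as the series' design text names DESeq2 without batch correction. The low-count filter was run in several ways, and their calls were seen. The reported fit is the one that the written design states, DESeq2's default with its filter tuned at 0.1 and genes of 0 counts kept in the table. An earlier analysis of these data corresponds to a filter tuned at 0.05 without those genes, which calls 792 genes and 4 members in place of 769 and 3. The quasi-likelihood test of edgeR 4.0.16 is printed beside it because it called 203 genes. Normalized counts are counts divided by size factors, and levels per kb divide these by the exon union of GENCODE M21, which held all 55536 gene IDs. Values after ± are SDs.

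Values in every library are given for called members, Tcf7l2, Wnt4, members whose groups do not overlap with a mean of at least 50 normalized counts, and the most abundant member per kb of each role. Other pathway genes are named where called, up to 4 per list. A few further members are named after their values were seen. The members, lists and markers were chosen with earlier results of these data known. The fits were tested on simulated counts with known changes. Those counts held no library with a profile of its own and no difference in cell make-up, so the test does not bear on either.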

Additional observations from a re-analysis of the deposited data

Results flagged for a closer look

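Among 30 members with a mean of at least 10 normalized counts, the 4 control libraries were searched with Dixon's ratio for a single distant value, where chance flags about 1 in 20 groups, or 1.5 here. There were 3. Fzd5 was at 545 normalized counts in control 2, against 416 to 429 in the other controls. Wnt2b was at 246 in control 4, against 0 to 9.15, and DESeq2 gave it no adjusted p with all libraries and 0.392 without control 2, the only leave-one-out fit that gave one. Ctnnb1 was at 9686 in control 4, against 15053 to 15931.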

How the results depend on the processing

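The 14 genes that were called or, among members, did not overlap between groups kept their direction in 20 alternative fits, 4 of which were added after seeing the data. All 14 had fully separated groups, so fits on fewer libraries could hardly reverse a sign. Their kept direction is therefore no separate test of these results. The other 24 members with an adjusted p had overlapping groups. Of these, 10 had log2 fold changes of both signs when each library was left out in turn. Among them were Fzd3 (-0.01 to 0.16), Wnt5b (-0.24 to 0.05), Sfrp1 (-0.60 to 0.06) and Dkk3 (-1.20 to 0.47). Wnt4 and Celsr1 were called in all 20, Sfrp5 in 13 and Rnf43 in 8. Axin2 was called in 7, Lrp6 in 4, Lrp5 in 2 and Fzd1 in 0. In edgeR the numbers of calls over all genes, members and other pathway genes were 203, 1 and 1. Without a filter on low counts they were 329, 1 and 3, and without control 4 they were 249, 1 and 1. The number of members called was 5 with TMM-based size factors, 5 with library totals and 5 after a filter of 10 counts in at least 3 libraries. Library totals turned the split of 386 higher and 383 lower genes into 695 and 298. Leaving out 1 library gave 430 to 891 genes, 1 to 4 members and 3 to 8 other pathway genes. The 430 and the 3 came without KO 1. Only Wnt4 remained among the members without control 3, KO 1 or the unnumbered KO library. The cause was not tested.

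Control and KO share only the numbers 1 and 2, and no source says that a number marks a shared litter or day. Deviations from the group means correlated at 0.231 for the libraries numbered 1 and 0.301 for those numbered 2, against -0.0928 and 0.0552 across numbers (14570 genes). With the replicate block on these 4 libraries 579 genes, 2 members (Sfrp5 and Wnt4) and 7 other pathway genes were called. Without the block the same 4 libraries gave 613, 1 and 7. In both fits the 7 held Bambi and Tle1 and lacked Apcdd1 and Myc. The blocked log2 fold changes were -0.91 for Apcdd1 (adjusted p 0.366) and 0.64 for Myc (0.101). Depth limits the low members: 24 with any count averaged under 50 normalized counts, and the SE of a tested log2 fold change reached 1.43 in Fzd9.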
